A study of Mus musculus with 6 samples.

Results

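The genes described are 48 mouse genes of the NF-kB pathway, its chemokine and adhesion targets, and the cytokine and Toll-like receptors that feed it. They were taken by symbol from a list that was chosen with earlier results of these data known. Each matched 1 of the 55487 gene rows of the count tables. RNA was sequenced from hepatocytes of the liver, with 3 libraries from mice homozygous for AEG-1-C75S (called C75S here) and 3 from AEG-1-WT mice (called WT). Both genotypes were bred from heterozygous parents, the mice were 6 to 8 weeks old, and RNA was taken 48 h after the cells were isolated. All 6 libraries carry the treatment label Control, so no inflammatory stimulus is named for either genotype. The allele replaces the cysteine of AEG-1 that carries a palmitoyl group with serine, and the question was which transcripts differ when that residue is changed. The labels leave unsaid if each library is a mouse of its own, if mice were pooled and which libraries were processed together, so n counts libraries. The p-values set the difference between genotypes against the variation between these libraries, estimated with information shared across genes.

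NF-kB is a family of dimeric transcription factors held in the cytoplasm by inhibitory IkB proteins. Signals from receptors for TNF, interleukin 1 and bacterial products pass through adaptors and ubiquitin ligases to the IKK complex, which phosphorylates the IkB proteins and so marks them for destruction. The freed dimers enter the nucleus and switch on chemokines, adhesion molecules and the pathway's own inhibitors. AEG-1 is known as a binding partner of the RelA subunit that raises NF-kB activity in liver cells.

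The libraries held 16944723 to 21044292 counts on genes, so that 3 counts equalled 0.142 to 0.172 CPM (counts per 1000000 counts, on TMM-scaled library sizes). Expression was compared between genotypes with edgeR's quasi-likelihood test over the 12741 genes that passed a filter on low counts, with Benjamini-Hochberg adjustment over all of them, and a gene with an adjusted p under 0.05 is said to be called. Changes are log2 fold changes of C75S against WT, and the intervals beside them are 95% intervals for a single gene. *Mtdh*, which encodes AEG-1, was measured at 212, 192 and 196 CPM in C75S and 198, 201 and 191 CPM in WT, with a log2 fold change of 0.02 (SE 0.05). A gene count does not read the altered codon, so this does not check the genotype labels. In bulk RNA, fewer cells of a type and less RNA per cell cannot be told apart.

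Of the 48 genes, 41 passed the filter, and 1 of these, the chemokine *Cxcl16*, was called. It was higher in C75S, and 0 of the 41 were called lower. Over all 12741 genes tested, 3.11% were called, 1.74% higher and 1.37% lower, against 2.44% of the 41. At an unadjusted p under 0.05 there were 5 members higher and 2 lower, or 17.1% of the 41 against 13.4% of all genes (6.91% higher and 6.51% lower). The libraries of the 2 genotypes did not overlap for 9 of the 41 (6 higher, 3 lower in C75S), or 22.0% against 18.0% of all genes (9.02% higher and 8.96% lower). The members' shares lay near those of all genes on each of these counts.

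The typical change was small. The median log2 fold change of the 41 was 0.07, beside -0.0030 over all genes, and 28 of the 41 (68.3%) lay above 0, beside 49.1% of all genes. The changes ran from -0.24 for *Ccl20* to 0.70 for *Il1rn*. The interval of 23 of the 41 lay wholly within a 1.25-fold change in either direction, and that of 34 within a 1.5-fold change. The 7 whose intervals reached past 1.5-fold were *Nfkbie*, *Tlr4*, *Il1rn*, *Cxcl1*, *Cxcl10*, *Ccl20* and *Vcam1*, and those of *Il1rn*, *Cxcl10* and *Ccl20* reached past 2-fold. The median SE was 0.08 for the members and 0.09 for all genes tested.

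**Figure D1:**
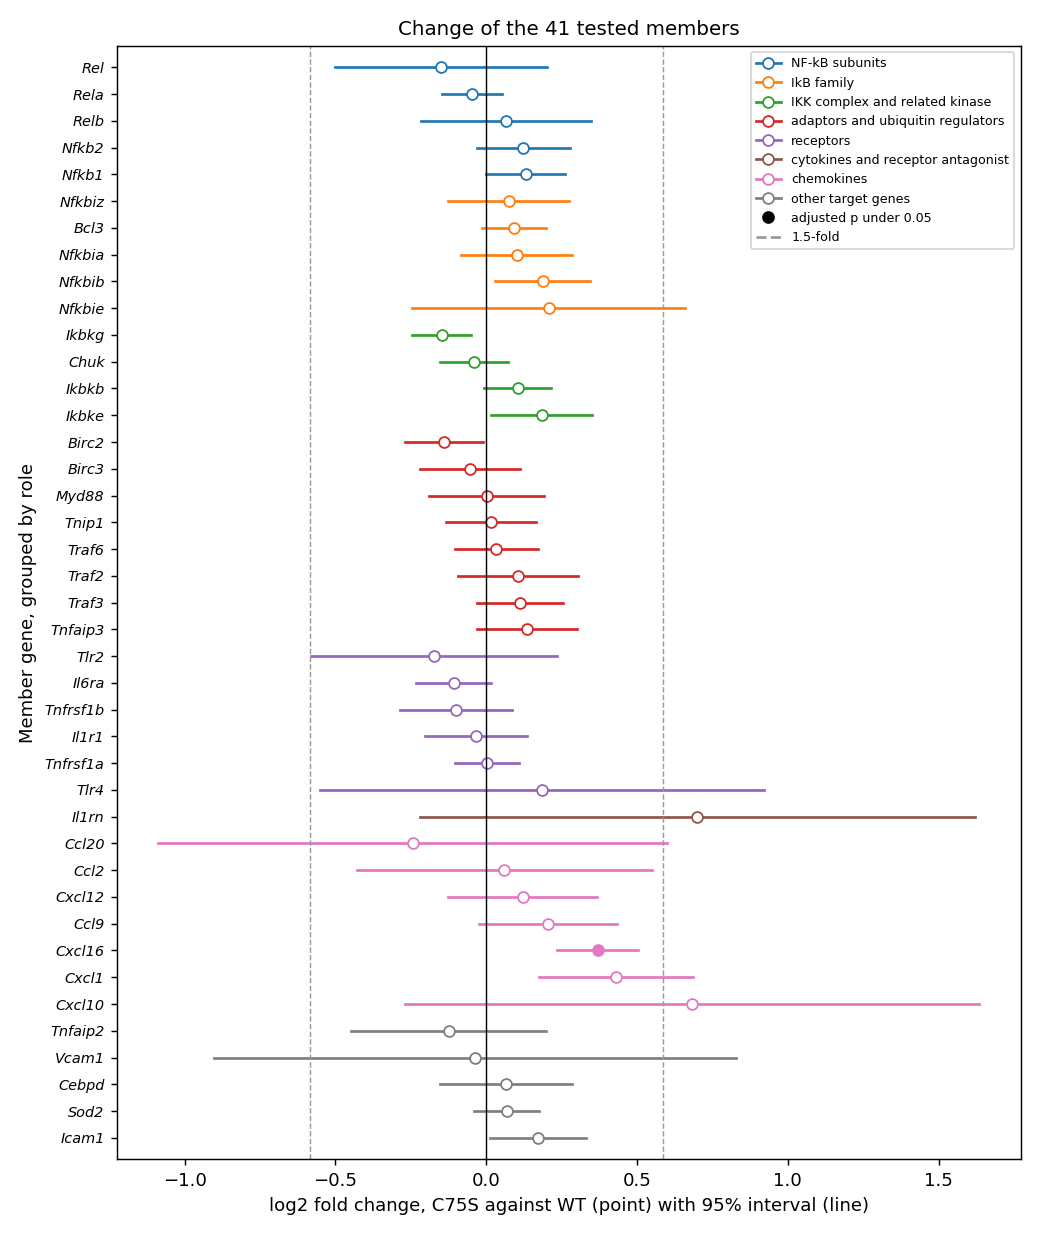
log2 fold change of C75S against WT (x axis, no further unit) for the 41 tested members (y axis), coloured by role, with lines for 95% intervals and dashed lines at 1.5-fold. Cxcl16 is the filled point, at 0.37, and the widest intervals belong to Il1rn, Cxcl10, Ccl20 and Vcam1.

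Levels were compared between genes as RPKM, CPM per kilobase of annotated exon, and are given as WT means with SD (n = 3). *Rela*, the transactivating subunit, stood highest at 57.7 ± 1.54 RPKM. It was followed by *Ikbkg*, the regulatory subunit of the IKK complex (44.7 ± 0.73), *Tnfrsf1a*, the main TNF receptor (43.8 ± 1.76), and *Bcl3*, a nuclear IkB protein that acts with NF-kB on DNA (41.5 ± 1.41). The WT libraries of *Rela* lay above those of *Ikbkg*, whereas *Ikbkg* overlapped *Tnfrsf1a*, and *Tnfrsf1a* overlapped *Bcl3*. *Ccl2*, the monocyte chemokine, stood next at 31.2 ± 6.93 RPKM and overlapped *Chuk*, a catalytic IKK subunit, at 24.0 ± 1.62. In all, 12 members were at 10 RPKM or more in WT, 24 between 1 and 10, and 12 under 1. Among those under 1 RPKM were *Tlr4*, *Il1rn*, *Cxcl10*, *Ccl20*, *Vcam1*, and all 7 members that did not pass the filter. The receptors and chemokines each spanned members near the top and near the bottom of this order.

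**Figure D2:**
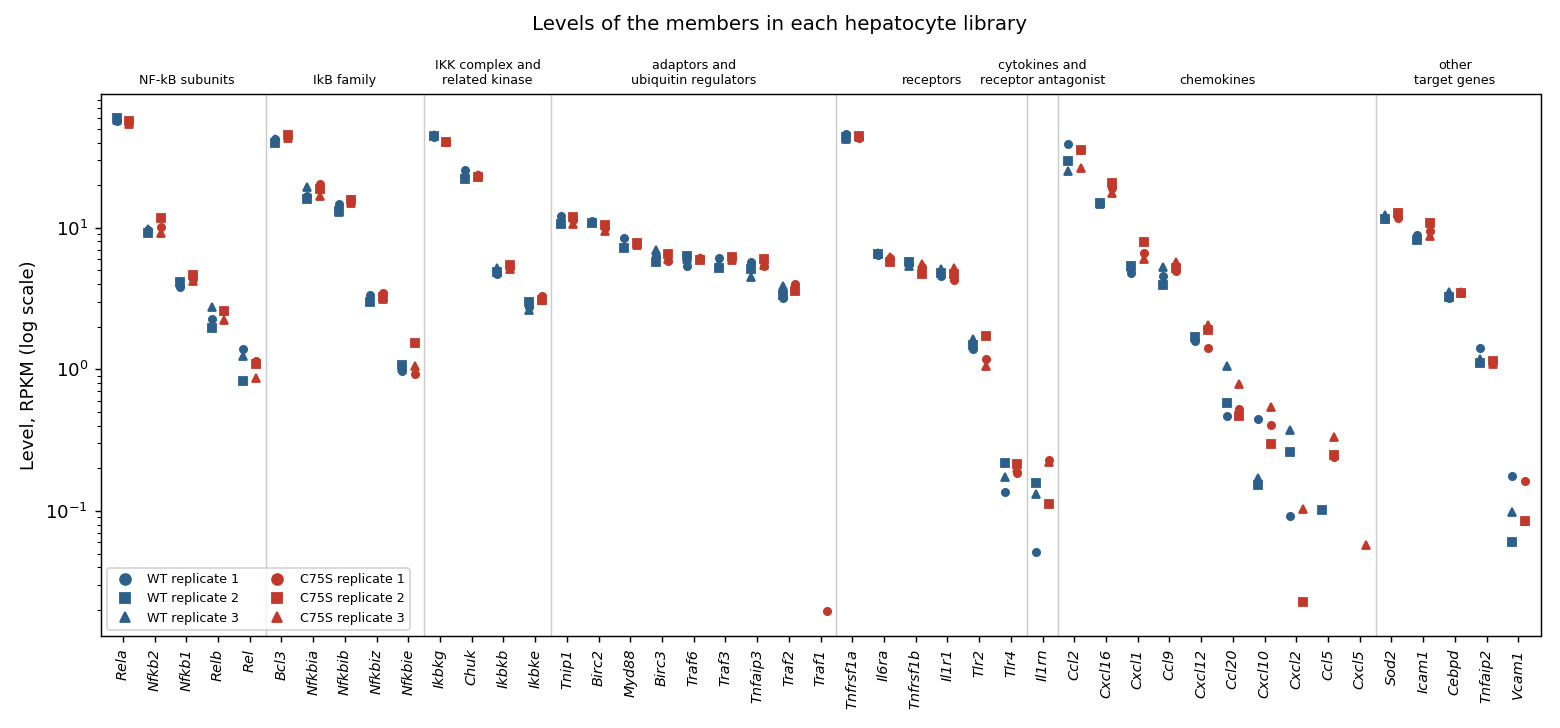
Level of each member in every library as RPKM on a log axis, grouped by role, for WT and C75S. Values of 0 are not drawn, so that Il6, Il1b and Tnf have no points. Rela is highest among the subunits, at 57.7 RPKM in WT, and the receptors run from Tnfrsf1a at 43.8 to Tlr4 at 0.177.

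None of the 5 NF-kB subunit genes was called. *Rela* was measured at 174, 175 and 166 CPM in C75S and 173, 182 and 176 CPM in WT, a change of -0.05 (SE 0.05) with an edgeR adjusted p of 0.748. The libraries overlapped, and the interval of -0.15 to 0.05 leaves room for a small change only. *Nfkb1*, which encodes the precursor of the p50 subunit, was measured at 52.0, 56.0 and 50.4 CPM in C75S and 46.0, 49.6 and 49.2 CPM in WT. Its C75S libraries all lay above its WT libraries, with a log2 fold change of 0.13 and an edgeR adjusted p of 0.373. *Nfkb2*, the precursor gene of the non-canonical pathway, gave 0.12, its partner *Relb* 0.07 and *Rel*, prominent in lymphoid cells, -0.15. *Rel* and *Relb* had the lowest levels of the 5, at 1.15 and 2.34 RPKM in WT.

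All 5 genes of the IkB family had log2 fold changes above 0, from 0.07 to 0.21, and none was called. *Nfkbib*, which encodes IkB beta, was measured at 34.6, 34.0 and 32.2 CPM in C75S and 31.9, 28.4 and 28.2 CPM in WT. The genotypes did not overlap, although the highest WT library came close to the lowest C75S library, and the log2 fold change was 0.19 (SE 0.08, unadjusted p = 0.0218, edgeR adjusted p = 0.244). *Bcl3* was likewise without overlap, at 110, 112 and 107 CPM in C75S and 105, 98.8 and 105 CPM in WT, with a log2 fold change of 0.09. *Nfkbia*, which encodes IkB alpha and is the classic rapid target of NF-kB, was measured at 32.8, 30.5 and 26.9 CPM in C75S and 27.1, 25.6 and 31.3 CPM in WT. These overlapped, with a log2 fold change of 0.10 (interval -0.08 to 0.28) and an edgeR adjusted p of 0.690. *Nfkbiz*, a nuclear IkB protein, gave 0.07, and *Nfkbie*, which encodes IkB epsilon, 0.21 at 2.81 to 4.65 CPM.

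None of the 4 IKK genes was called, and their log2 fold changes lay on both sides of 0. *Ikbkg*, encoding the scaffold subunit known as NEMO, had the highest CPM of all members, with no correction for gene length, at 326, 330 and 325 in C75S and 357, 360 and 369 in WT. Every C75S library lay below every WT library, and the log2 fold change was -0.15 (SE 0.05, interval -0.24 to -0.05), with an edgeR adjusted p of 0.0985. With DESeq2 its adjusted p was 0.0441, and over the 15 alternative fits it ran from 0.0441 to 0.254. *Ikbke*, a related kinase that is not part of the core complex, was measured at 29.7, 27.9 and 27.9 CPM in C75S and 24.8, 26.9 and 23.5 CPM in WT, without overlap in the other direction. Its log2 fold change was 0.18 (SE 0.08, unadjusted p = 0.0320, edgeR adjusted p = 0.299). The catalytic subunits *Ikbkb* and *Chuk* gave 0.10 and -0.04.

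Among the adaptors and ubiquitin regulators, 8 of 9 were tested and none was called. *Birc2*, a ubiquitin ligase of the TNF receptor complex, was measured at 45.4, 48.0 and 43.2 CPM in C75S and 51.1, 49.3 and 50.2 CPM in WT. All C75S libraries were lower, with a log2 fold change of -0.14 (SE 0.06, unadjusted p = 0.0374, edgeR adjusted p = 0.324), while its paralog *Birc3* gave -0.05 with overlap. *Tnfaip3*, which encodes the deubiquitinating inhibitor A20, gave 0.14 (edgeR adjusted p = 0.505), and its partner *Tnip1* 0.02. The TRAF adaptors gave 0.11 (*Traf2*), 0.11 (*Traf3*) and 0.03 (*Traf6*), and *Myd88*, the adaptor of Toll-like and interleukin 1 receptors, 0.0015. *Traf1* had 3 counts in 1 C75S library and 0 in the other 5.

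The receptors had the lowest role median, -0.07, with 4 of 6 below 0 and none called. *Il6ra*, the interleukin 6 receptor, was measured at 53.2, 49.1 and 54.0 CPM in C75S and 55.1, 56.0 and 57.2 CPM in WT. Its C75S libraries were all lower, with a log2 fold change of -0.11 (SE 0.06) and an edgeR adjusted p of 0.476. *Tnfrsf1a* was at 112, 116 and 113 CPM in C75S and 118, 113 and 109 CPM in WT, a log2 fold change of 0.0031 with an interval of -0.10 to 0.11. The second TNF receptor *Tnfrsf1b* gave -0.10, the interleukin 1 receptor *Il1r1* -0.03 and the lipoprotein sensor *Tlr2* -0.17. *Tlr4*, the receptor for bacterial lipopolysaccharide, gave 0.19 at 0.76 to 1.22 CPM, with an interval of -0.55 to 0.92.

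The cytokines *Il6*, *Il1b* and *Tnf* had 0 counts in all 6 libraries, which allows up to 0.142 to 0.172 CPM in a library, for counting error only. *Il1rn*, the secreted antagonist of the interleukin 1 receptor, was measured at 1.26, 0.617 and 1.23 CPM in C75S and 0.285, 0.877 and 0.728 CPM in WT. The lowest C75S library lay below 2 of the WT libraries, and the log2 fold change of 0.70 had an SE of 0.45 and an edgeR adjusted p of 0.536. Its coefficient of variation was 35.1% in C75S and 48.9% in WT, against 24.9% for counting alone, and on leaving out each library the log2 fold change ran from 0.35 to 1.01 (without WT replicates 1 and 2 in turn).

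The chemokines had a median log2 fold change of 0.21, with 6 of the 7 tested above 0. *Cxcl16* (ENSMUSG00000018920, GRCm38 chr11:70453983-70459984, minus strand), a chemokine that is made as a membrane-bound protein and attracts lymphocytes bearing CXCR6, was measured at 57.8, 62.3 and 53.5 CPM in C75S and 45.2, 44.8 and 44.5 CPM in WT. The WT libraries lay within 1 CPM of each other, and the lowest C75S library stood well above them. The coefficient of variation was 7.55% in C75S and 0.683% in WT, against 3.13% for counting alone. The WT libraries thus lay closer together than counting error alone would give, and their SD is no measure of precision. The means were 57.9 ± 4.37 CPM (SD, n = 3) and 44.8 ± 0.31 CPM (SD, n = 3), a 1.29-fold difference. The log2 fold change was 0.37 (SE 0.06, interval 0.24 to 0.50, edgeR adjusted p = 0.00098). It was called in all 15 alternative fits, at log2 fold changes from 0.31 to 0.42 and adjusted p-values from 8.19e-06 to 0.0142, the last without C75S replicate 2. *Cxcl16* overlaps *Zmynd15* on the opposite strand, and the forward-strand counts there were 0.573% of the reverse-strand counts used.

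*Cxcl1* (ENSMUSG00000029380, GRCm38 chr5:90891241-90893115, plus strand), which attracts neutrophils, was measured at 12.4, 15.0 and 11.3 CPM in C75S and 8.93, 9.99 and 9.90 CPM in WT. The genotypes did not overlap, and the log2 fold change was 0.43 (SE 0.12, interval 0.18 to 0.69). Its edgeR adjusted p of 0.056 missed the threshold. It passed in 4 of the 15 alternative fits, and its adjusted p ran from 0.0280 with no filter to 0.368 without C75S replicate 2, where the log2 fold change was 0.31. *Cxcl2*, its neighbour on chromosome 5 and also a neutrophil attractant, did not pass the filter. It had 0, 1 and 4 counts in C75S and 4, 11 and 16 in WT, so that the libraries met at 4. The summed counts of 5 and 31 gave a ratio of 0.175 with a 95% interval of 0.0532 to 0.455 that covers counting error only, and edgeR with no filter gave an adjusted p of 0.121.

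*Ccl2* differed more within than between genotypes, at 40.3, 40.6 and 30.2 CPM in C75S and 44.2, 33.5 and 28.8 CPM in WT. Its coefficient of variation was 16.0% in C75S and 22.2% in WT, against 3.72% for counting alone, and its log2 fold change was 0.06 (SE 0.20). *Cxcl10*, a chemokine induced by interferons, was at 0.919, 0.664 and 1.23 CPM in C75S and 0.997, 0.341 and 0.388 CPM in WT. The genotypes overlapped, and the log2 fold change of 0.68 (SE 0.46) had an edgeR adjusted p of 0.567. Without WT replicate 2 that change was 0.42, and without WT replicate 1 it was 1.34. *Ccl9* gave 0.21, *Cxcl12*, which holds and attracts cells bearing CXCR4, 0.12, and *Ccl20*, which attracts cells bearing CCR6, -0.24. *Ccl5* had 4, 5 and 6 counts in C75S and 0, 2 and 0 in WT, without overlap, and *Cxcl5* had 2 counts in 1 C75S library and 0 in the other 5. For *Ccl5* the ratio of summed counts was 8.16 with a counting interval of 1.90 to 73.5, and edgeR with no filter gave an adjusted p of 0.394.

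**Figure D3:**
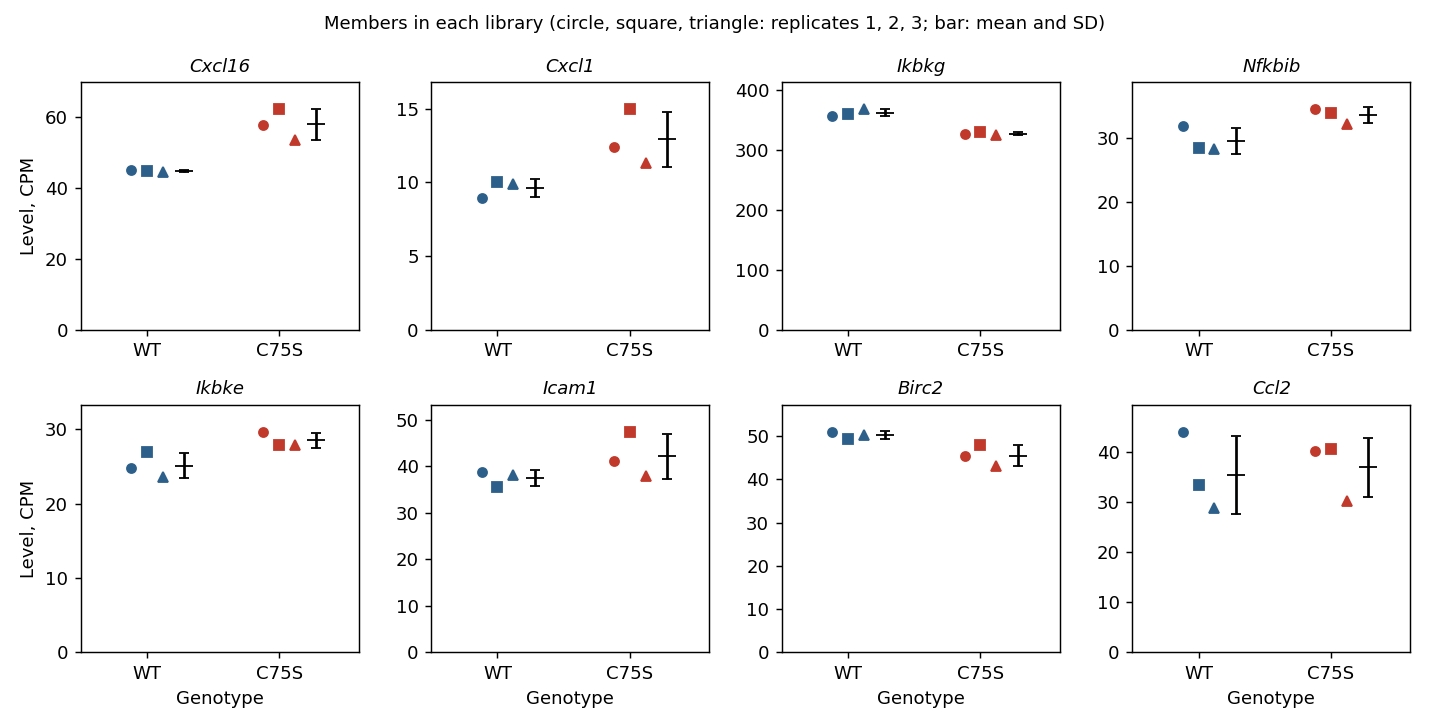
CPM in each library (y axis from 0; circles, squares and triangles for replicates 1, 2 and 3) with mean and SD by genotype for 8 members. Cxcl16 in C75S lies at 53.5 to 62.3 CPM, above 44.5 to 45.2 CPM in WT, Ikbkg in C75S lies below WT, at 325 to 330 against 357 to 369 CPM, and Ccl2 overlaps between genotypes.

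None of the 5 other targets was called. *Icam1*, the leukocyte adhesion molecule, was measured at 41.1, 47.4 and 37.9 CPM in C75S and 38.7, 35.6 and 38.0 CPM in WT. The genotypes overlapped, with a log2 fold change of 0.17 (SE 0.08, unadjusted p = 0.0364, edgeR adjusted p = 0.319). *Sod2*, the mitochondrial superoxide dismutase, was measured at 116, 126 and 128 CPM in C75S and 116, 116 and 122 CPM in WT, a change of 0.07 (SE 0.05) with an edgeR adjusted p of 0.640. The acute-phase regulator *Cebpd* gave 0.07, *Tnfaip2* -0.12 and the adhesion molecule *Vcam1* -0.04, the last at 0.536 to 1.57 CPM.

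The 300 bases around the RefSeq start sites (250 before to 50 after, GRCm38.p6) were searched on both strands for the NF-kB consensus, with overlapping matches allowed. A window was at hand for 37 members, and 17 of these (45.9%) held a match, beside 6.13% of the 9679 tested genes with a window and 5.14% of all 27025 genes. By role, 5 of 6 chemokines, 3 of 4 IkB genes and 2 of 3 subunit genes held a match, and 0 of 3 IKK genes. The members with no window were *Cxcl16*, *Ccl2*, *Ccl5*, *Cxcl5*, *Nfkb1*, *Relb*, *Nfkbiz*, *Ikbkb*, *Tlr4*, *Cebpd* and *Vcam1*. A match is a description of letters and not of binding. The sites below were chosen after the values were seen, to show the consensus in members of different roles. Each is printed 5′ to 3′ on the strand of the gene with a match in capitals. At *Cxcl1*, *Cxcl2*, *Nfkb2* and *Tnip1*, overlapping matches run on into the small letters. The *Nfkbia* capitals match on the opposite strand only.
Cxcl1: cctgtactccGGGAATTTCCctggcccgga
Cxcl2: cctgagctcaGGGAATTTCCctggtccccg
Cxcl10, far site: agaggggagaGGGAAATTCCaagttcatgg
Cxcl10, near site: cggtttacagGGGACTTCCCtcgggttgcg
Nfkbia: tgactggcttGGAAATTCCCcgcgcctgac
Nfkb2: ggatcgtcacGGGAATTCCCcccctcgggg
Tnip1: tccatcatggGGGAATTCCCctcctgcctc
Il6: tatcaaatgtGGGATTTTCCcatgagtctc

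*Cxcl1* and *Cxcl2* carry the same 10 letters, starting 71 and 97 bases before their start sites, in windows chr5:90890995-90891294 and chr5:90903649-90903948. The *Cxcl10* matches start 159 and 103 bases before the start (chr5:92348840-92349139, minus strand), and those shown for *Nfkbia*, *Nfkb2*, *Tnip1* and *Il6* start 29, 39, 57 and 44 bases before. *Nfkb2* had 3 windows, and the 39 bases are counted from the start in the first. That window held a further match, starting 11 bases before, and the other windows held matches too. Members with a match had unlike values: *Cxcl1* had a log2 fold change of 0.43, *Cxcl2* had fewer summed counts in C75S than in WT, and *Il6* had 0 counts. Of the members with a match, 15 were tested, with 11 above 0, a median log2 fold change of 0.10 and 0 called by edgeR. Of those with a window and no match, 17 were tested, with 9 above 0, a median of 0.0015 and 0 called. Of those with no window, 9 were tested, with 8 above 0, a median of 0.07 and 1 called. The difference between these groups was not tested.

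A wider list of 85 other pathway genes gave 59 that were tested. Of these, 2 were called, both higher in C75S, and both were among the 13 tested targets, while 0 of 11 receptors, 0 of 28 adaptors, kinases and ubiquitin regulators and 0 of 7 chemokines and chemokine receptors were called. This is 3.39% of the 59, near the 3.11% of all genes. The list was chosen with earlier results of these data known, so its shares are a description only. At an unadjusted p under 0.05 there were 7 higher and 3 lower of the 59. Over all genes the share was 13.4%, with 6.91% higher and 6.51% lower. The genotypes did not overlap for 20.3% of the 59 (9 higher, 3 lower), beside 18.0% of all genes. The median log2 fold change of the 59 was 0.04, with 37 (62.7%) above 0, beside 49.1% of all genes. *Saa3*, an acute-phase serum amyloid, was measured at 26.8, 17.7 and 21.3 CPM in C75S and 13.2, 14.3 and 11.6 CPM in WT. All C75S libraries were higher, by 0.74 on the log2 scale (SE 0.13), with an edgeR adjusted p of 0.00174, and it was called in all 15 alternative fits. *Lcn2*, the iron-chelating acute-phase protein lipocalin, was measured at 1684, 1590 and 1854 CPM in C75S and 1489, 1505 and 1342 CPM in WT. All C75S libraries were again higher, by 0.24 on the log2 scale (SE 0.06), with an edgeR adjusted p of 0.0290. The *Lcn2* call was lost without C75S replicate 3 or without any 1 of the WT libraries, with an adjusted p of up to 0.190.

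Several members are also made by macrophages and endothelial cells, and markers of other liver cells were read in the same libraries. All 10 hepatocyte markers were tested and 0 called. Of 14 Kupffer cell and macrophage markers 2 were tested and 0 called, and their summed level was 98.0 to 141 CPM in C75S and 105 to 136 CPM in WT, most of it *Cd68*. Among these markers, *Adgre1*, *Clec4f* and *Timd4* had at most 4 counts in a library, and *Vsig4* at most 5. *Marco* (6, 6 and 6 counts in C75S, 1, 0 and 2 in WT) and *Cd163* (7, 8 and 10 in C75S, 2, 3 and 6 in WT) were higher in C75S without overlap but were not tested. The *C1q* genes, also not tested, went in unlike directions. *C1qa* had 5, 4 and 2 counts in C75S and 15, 18 and 5 in WT. *C1qb* had 11, 8 and 7 in C75S and 21, 4 and 7 in WT, and *C1qc* 6, 10 and 4 in C75S and 4, 1 and 5 in WT. Of 5 neutrophil markers 4 had 0 counts throughout, as had 6 of 7 lymphocyte markers. Endothelial markers summed to 40.2 to 51.0 CPM in C75S and 38.8 to 48.4 CPM in WT, with 8 of 10 tested and 0 called, and *Stab2* gave the most of that sum, at means of 24.9 and 26.4 CPM and a log2 fold change of -0.09. *Lyve1*, *Pecam1* and *Kdr* lay higher in all C75S libraries, by 0.85, 0.70 and 0.69 on the log2 scale (edgeR adjusted p = 0.131, 0.208 and 0.521), the first and second of them at an unadjusted p under 0.05. Stellate markers summed to 52.7 to 69.0 CPM in C75S and 67.8 to 90.5 CPM in WT, with 3 of 8 tested and 0 called, and were mostly *Reln*, at means of 58.7 and 75.2 CPM. Cholangiocyte markers summed to 38.0 to 40.7 CPM in C75S and 34.1 to 37.9 CPM in WT, with 3 of 6 tested and 1 called, the keratin *Krt19*. It was at 10.6, 8.21 and 9.74 CPM in C75S and 5.51, 5.70 and 5.19 CPM in WT, or 0.80 higher on the log2 scale (edgeR adjusted p = 0.00151). The other bile duct markers did not share that pattern: *Sox9* gave -0.06, *Krt7* overlapped at 0.44, *Epcam* had 0, 1 and 2 counts in C75S and 12, 3 and 4 in WT, *Sctr* had 2 counts in 1 library and *Cftr* 0 throughout. *Krt19*, *Marco*, *Cd163*, *Lyve1*, *Pecam1* and *Kdr* lay on the same side as *Cxcl16*, *Saa3* and *Lcn2*. So did *C1qc* and *Des* (1, 2 and 3 counts in C75S, 0, 0 and 1 in WT). Tested markers also above 0, with overlap, were *Krt7*, *Cdh5* (0.34), *Stab1* (0.25), *Csf1r* (0.15), *Col1a1* (0.12), *Oit3* (0.07) and *Cd68* (0.02). On the other side lay *Epcam* (without overlap), *C1qa*, *Hand2*, *Stab2*, *Sox9*, *Dcn* (-0.14), *Reln* (-0.36) and *Fcgr2b* (-0.41). *Lyve1*, *Kdr*, *Csf1r* and *Col1a1* had low counts, 24 to 52, 10 to 20, 13 to 27 and 3 to 12 in a library. Of the 26 tested markers, hepatocyte markers included, 15 lay above 0 and 11 below. Of these 26, 15.4% did not overlap between genotypes, beside 18.0% of all genes. That share pools unlike cell types. It was 37.5% of the 8 endothelial and 33.3% of the 3 cholangiocyte markers tested, all higher in C75S. For hepatocyte, macrophage and stellate markers it was 0%. The 8 endothelial markers had a median log2 fold change of 0.29, with 6 above 0 and 2 below. The part of other cells in the differences of *Cxcl16*, *Saa3* and *Lcn2* was not tested.

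**Figure D4:**
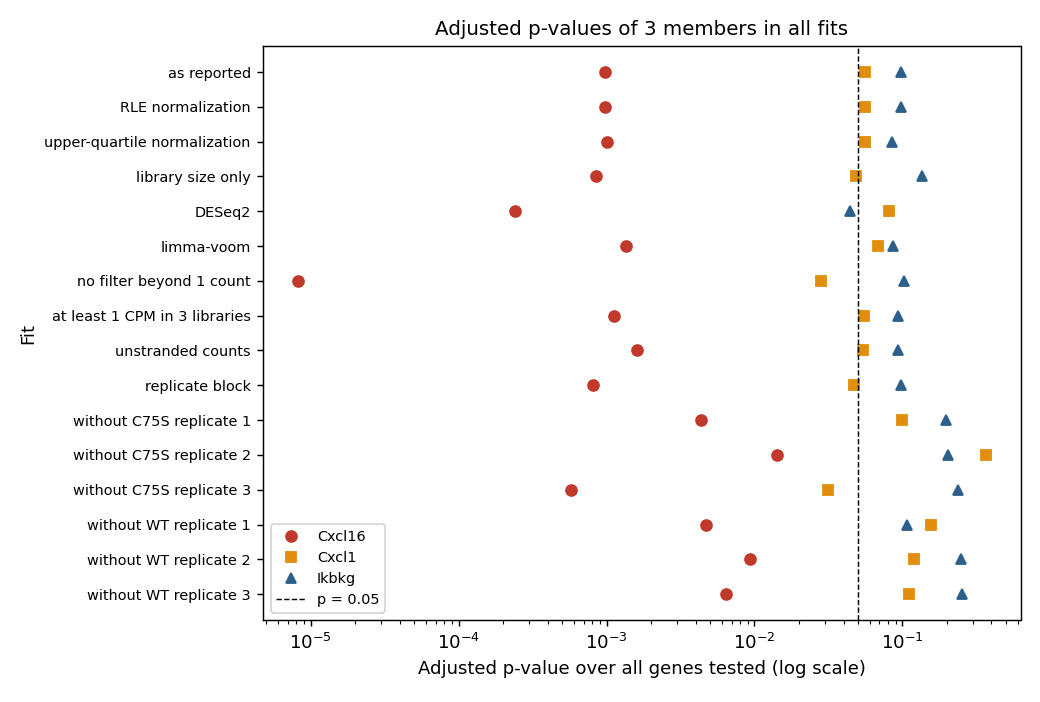
Adjusted p-value (x axis, log scale) of Cxcl16, Cxcl1 and Ikbkg in the reported fit and 15 alternatives (y axis), with a dashed line at 0.05. Cxcl16 stays left of the line in each, up to 0.0142, Cxcl1 falls on both sides and Ikbkg passes with DESeq2 at 0.0441.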

How the data were processed

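The authors deposited raw counts per Ensembl gene in STAR's layout. Trim Galore 0.6.6, STAR 2.7.9a, edgeR 3.36.0 and the build GRCm38 are named in the submitters' processing notes. The reverse-strand column, whose total was 33.3 times the forward one, was used, and the summary rows were dropped. Positions and exon lengths came from GENCODE M21. Exon lengths include all annotated exons, which lowers RPKM for genes with long rare transcripts. Filtering (filterByExpr, minimum count 10, minimum total 15), TMM scaling and robust two-sided quasi-likelihood tests with genotype as the only term used edgeR 4.0.16 in R 4.3.3. The SE is the size of the change over the square root of F. The procedure was tested on simulated data. Values in every library are given for called members, those at an unadjusted p under 0.05, the 3 with the highest CPM and the 3 largest uncalled changes. *Nfkb1*, *Bcl3*, *Nfkbia*, *Tnfrsf1a*, *Il6ra*, *Ccl2* and some markers were given too, chosen after seeing their values. Sites are printed for members that were not called, since no window was used for *Cxcl16*. Members and lists were chosen with earlier results of these data known. Alternatives were DESeq2 1.42.0, limma-voom (limma 3.58.1), scaling by RLE, by the upper quartile or by library size, 2 other filters, unstranded counts, a replicate block and leaving out each library.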

Additional observations from a re-analysis of the deposited data

How the results depend on the processing

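*Cxcl16* and *Saa3* kept direction and call in all 15 alternatives. All genes called numbered 396, 573 with no filter and 480 with the replicate block, and 201 (without WT replicate 2) to 355 (without C75S replicate 3) on leaving out each library; without C75S replicate 1 there were 253 and without WT replicate 3 there were 246. Members called numbered 2 in place of 1 with library-size scaling, no filter or the replicate block (*Cxcl1*, at adjusted p = 0.0485, 0.0280 and 0.0468) and with DESeq2 (*Ikbkg*), and 1 to 2 on leaving out each library, the second being *Cxcl1* without C75S replicate 3 (0.0315). Other pathway genes called numbered 3 with no filter, *Irf7* being lower there, and 1 to 3 on leaving out each library. The members' median log2 fold change was 0.0675 to 0.0790 with all libraries, and was lowest, 0.0367, without C75S replicate 1 and highest, 0.109, without replicate 3 of C75S. Of 641 single-gene fits, 27 had the opposite sign, all in genes that were not called. With no filter *Myd88* gave -0.0018 and *Tnfrsf1a* -0.00030, and *Vcam1* gave 0.025 with limma-voom and 0.016 with the replicate block. On leaving out each library the log2 fold change ran from -0.34 to 0.0088 for *Rel*, -0.044 to 0.20 for *Relb*, -0.041 to 0.35 for *Nfkbie*, -0.092 to 0.0052 for *Chuk*, -0.043 to 0.085 for *Myd88*, -0.025 to 0.084 for *Traf6*, -0.12 to 0.016 for *Birc3*, -0.023 to 0.076 for *Tnip1*, -0.11 to 0.032 for *Il1r1*, -0.024 to 0.035 for *Tnfrsf1a*, -0.069 to 0.25 for *Ccl2*, -0.50 to 0.17 for *Ccl20* and -0.40 to 0.46 for *Vcam1*. The cause was not tested. With at least 1 CPM in 3 libraries, *Il1rn*, *Cxcl10*, *Ccl20* and *Vcam1* gave no value. Same-numbered libraries of the genotypes had deviations correlated at 0.017, -0.040 and 0.025, so the numbers were not taken as pairs and the block is an alternative only. The 7 members that did not pass the filter had at most 16 counts in a library. The ratios of summed counts given for *Cxcl2* and *Ccl5* carry counting error only. Neither gene was called in the fit with no filter.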

Other observations

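At *Cebpd* the forward strand, that of the overlapping gene *Spidr*, held 216 counts over the 6 libraries against 1515 on the reverse strand used, or 14.3%, and at *Ikbke* it held 2.89%. At *Il1b*, which had 0 counts on its own strand, the opposite strand held 3.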
